A study of Mus musculus with 51 samples.

Results

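The genes described are 39 genes of glycolysis and of the response to low oxygen, chosen by gene symbol from general knowledge of these pathways. They were matched to the symbol column of each of the 2 tables of log2 expression values deposited for sorted CD8+ T cells of mice. Of the 39 genes, 38 were found among the 10560 genes of the table of untreated samples, and 38 among the 13458 genes of the table of checkpoint-blockade samples. Eno2 was not found in either table. The list holds 17 glycolytic enzymes, of which 16 were measured, and 3 regulators of the entry and exit of glycolysis. It also holds 3 genes of oxygen sensing (Hif1a, Egln1 and Egln3), 12 other genes induced by low oxygen and 4 enzymes of glycogen metabolism.

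Glycolysis breaks glucose down to pyruvate, and lactate dehydrogenase converts pyruvate to lactate when it is not passed to the mitochondria. T cells that are activated raise glycolysis, while naive and resting memory T cells rely more on mitochondrial respiration. When oxygen is scarce, the prolyl hydroxylases made from Egln1 and Egln3 stop marking HIF-1α, the protein of Hif1a, for destruction. HIF-1α then pairs with the protein of Arnt, binds short sites that contain the core letters ACGTG or GCGTG, and switches on glycolytic enzymes, Vegfa, Bnip3, Pdk1 and other genes. Tumors are often poorly supplied with oxygen and glucose, which is why these genes are of interest in T cells taken from them.

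The study sorted CD8+ T cells from mammary tumors of the AT3-OVA line (a mouse mammary tumor line, here carrying ovalbumin) by the surface proteins CD103 and CD69. CD103, an integrin chain made from Itgae, and CD69 together mark T cells that stay in a tissue. Untreated tumors gave CD103+CD69+ cells (3, 4, 3 and 3 libraries at weeks 1, 2, 4 and 6), CD103-CD69+ cells (3, 3, 2 and 3) and CD103-CD69- cells (2, 3, 3 and 2). Spleens labelled as control gave effector memory (EM), central memory (CM) and Naive cells, with 3 libraries each. A separate table holds tumor cells taken at day 40 under immune checkpoint blockade, with 3 CD103+CD69+, 3 CD103-CD69+ and 2 CD103-CD69- libraries; the labels do not name the agent. The spleen samples carry the AT3-OVA label as well, and the labels do not say whether those mice bore tumors. The labels give neither the mouse strain nor the age, and they do not say that replicates came from separate animals, so p-values measure the spread between these samples, which may be technical. RNA was sequenced from its 3′ end.

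The values are normalized and were read as log2. They do not rank genes by abundance, because gene means ran from -28.04 to 39.37 in the untreated table, so only differences of one gene between libraries are given. The tables give no read totals, so the depth behind each value is unknown. In sorted bulk cells, fewer cells of a type and less RNA per cell cannot be told apart. Replicates 1 and 2 of the week 4 CD103-CD69- cells were nearly alike. Over all genes the SD of the difference between them was 0.0394, against 0.196 for the next closest of 42 within-group pairs and a median of 0.439. Sampling noise could not be computed without counts, so both were kept, and results on CD103-CD69- cells are also given with their mean as 1 library. All CD103-CD69- libraries carry sample codes of 46 or more, while 10 of 11 CD103-CD69+ libraries and all 9 spleen libraries carry codes of 42 or less. That split and a difference of CD103-CD69- cells from spleen cells, or from the other week 1 cells, cannot be told apart. In weeks 2 to 6, Itgae was higher in CD103+CD69+ than in CD103-CD69- cells by 3.39 and Cd69 by 0.97, and both were also higher in CD103-CD69+ than in CD103-CD69- cells. Neither gene differed past the threshold between CD103+CD69+ and CD103-CD69+ cells, nor in any of the 3 week 1 comparisons, where the sort is therefore not visible in the RNA of its own markers.

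A promoter window of 300 bases (250 before and 50 after the transcript start, RefSeq, GRCm38.p6) was available for 37 of the 39 genes, all but Bnip3l and Ndrg1. The letters ACGTG or GCGTG were searched on both strands, so that the palindrome CACGTG counts on each strand. At least 1 match stood in the windows of 32 of the 37 genes (86.5%), against 12628 of 27025 genes in all (46.7%). At least 5 matches in a window were found for 3 of the 37 genes (8.11%) and for 515 of all genes (1.91%). A match is a description of the letters and not a binding site. The 5 windows below belong to genes on which the results turn: Ldha and Bnip3, with 7 and 5 matches, Pgk1 and Ldhb, with 2 and 1, and Tpi1, with 0. They are written 5′ to 3′ on the gene's own strand, with the matches in capitals. Ldha lies on the plus strand at chr7:46845554-46845853, Bnip3 on the minus strand at chr7:138909457-138909756 and Pgk1 on the plus strand at chrX:106186850-106187149. Ldhb lies on the minus strand at chr6:142507908-142508207 and Tpi1 on the minus strand at chr6:124814109-124814408. The RNA of Tpi1, whose window held no match, and that of Bnip3 and Ldha, whose windows held several, were all higher in tumor than in spleen EM cells, while Ldhb followed another course.
Ldha: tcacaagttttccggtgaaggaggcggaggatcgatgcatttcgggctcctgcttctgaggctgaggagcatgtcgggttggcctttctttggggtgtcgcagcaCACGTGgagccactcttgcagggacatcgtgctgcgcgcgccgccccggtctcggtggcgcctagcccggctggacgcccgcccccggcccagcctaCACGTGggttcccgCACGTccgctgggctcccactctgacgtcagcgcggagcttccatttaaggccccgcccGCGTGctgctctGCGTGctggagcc
Bnip3: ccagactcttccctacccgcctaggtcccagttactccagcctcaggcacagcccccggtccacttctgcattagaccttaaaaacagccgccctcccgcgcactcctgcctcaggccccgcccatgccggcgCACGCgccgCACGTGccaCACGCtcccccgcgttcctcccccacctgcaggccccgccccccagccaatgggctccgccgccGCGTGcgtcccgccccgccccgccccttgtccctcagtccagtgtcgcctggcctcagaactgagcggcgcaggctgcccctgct
Pgk1: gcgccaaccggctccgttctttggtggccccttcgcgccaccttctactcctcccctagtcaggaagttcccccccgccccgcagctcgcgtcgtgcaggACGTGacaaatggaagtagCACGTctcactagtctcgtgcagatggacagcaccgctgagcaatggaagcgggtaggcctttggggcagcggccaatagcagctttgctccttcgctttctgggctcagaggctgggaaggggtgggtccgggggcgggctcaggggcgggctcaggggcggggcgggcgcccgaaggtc
Ldhb: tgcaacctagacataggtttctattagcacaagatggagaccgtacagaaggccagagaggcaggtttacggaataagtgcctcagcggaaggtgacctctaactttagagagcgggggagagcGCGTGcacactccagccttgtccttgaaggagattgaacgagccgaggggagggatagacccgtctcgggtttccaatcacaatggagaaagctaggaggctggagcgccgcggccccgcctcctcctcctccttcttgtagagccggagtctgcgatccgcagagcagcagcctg
Tpi1: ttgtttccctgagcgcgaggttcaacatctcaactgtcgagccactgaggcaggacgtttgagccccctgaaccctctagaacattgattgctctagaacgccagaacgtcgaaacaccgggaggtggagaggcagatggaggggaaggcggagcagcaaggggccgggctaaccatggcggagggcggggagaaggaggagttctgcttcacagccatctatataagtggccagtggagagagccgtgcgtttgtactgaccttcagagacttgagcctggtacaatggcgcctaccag

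Across the 15 untreated groups, the members were most often highest in 1 late tumor group, the week 6 CD103-CD69- cells, and lowest in the spleen. The week 6 CD103-CD69- cells had the highest group mean for 20 of the 38 genes, among them 11 of the 16 glycolytic enzymes and 6 of the 12 hypoxia-induced genes. Spleen EM cells had the lowest mean for 16 of the 38 genes, 8 of them glycolytic enzymes, and spleen Naive cells had the lowest mean for 6 further glycolytic enzymes. Ldhb ran against this order, with its highest mean in spleen Naive cells. Of all genes, 9.13% had their highest mean in week 6 CD103-CD69- cells, 7.75% their lowest in spleen EM and 15% their lowest in spleen Naive cells. Week 6 CD103-CD69- cells also had high centred means of the markers of tumor epithelium (1.71), stroma (0.71) and red cells (1.71), whose part was not tested. These are ranks of group means and were not tested.

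**Figure D1:**
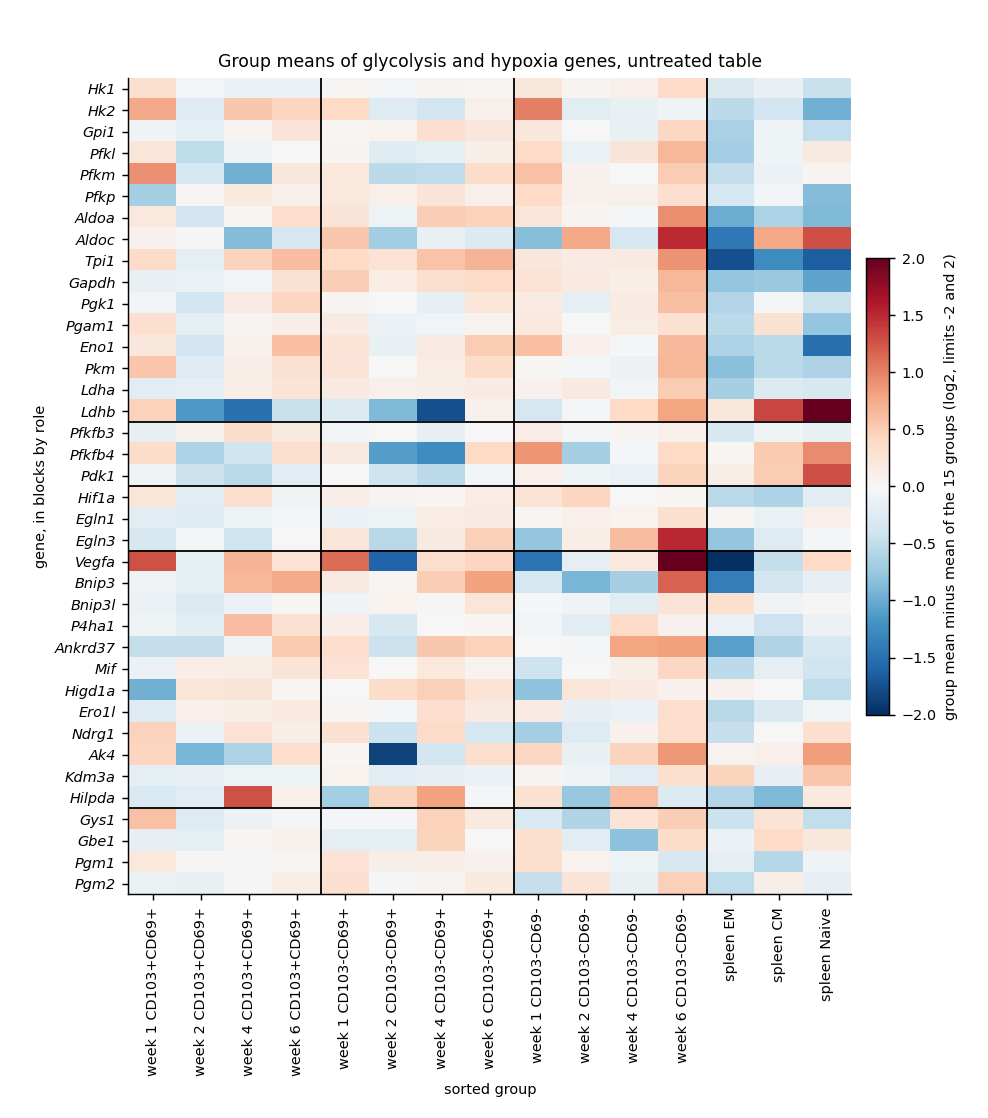
Group mean of each measured gene minus the mean of that gene over the 15 untreated groups (log2, color scale cut at -2 and 2), with genes in blocks by role and groups in columns. Most glycolytic enzymes are below their own average in the spleen columns and above it in the week 6 CD103-CD69- column, while Ldhb is highest in spleen Naive cells.

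The first comparison set the tumor subsets of weeks 2 to 6 against spleen EM cells, a memory subset of the spleen beside CM cells. Most glycolytic enzymes were higher in the tumor cells, with Tpi1 the most displaced, and so were Vegfa, Bnip3, Ero1l and Hif1a. Of the 38 genes, 20 were higher and 4 lower in CD103+CD69+ cells, 19 were higher and 2 lower in CD103-CD69+ cells, and 22 were higher and 1 lower in CD103-CD69- cells. Over all genes tested, 14% were higher and 15.2% lower in CD103+CD69+ cells. The shares were 16.1% and 14.2% in CD103-CD69+ cells, and 10.6% and 8.9% in CD103-CD69- cells. The median difference of the 38 genes was 0.55, 0.58 and 0.62 in that order of subsets, against -0.03, 0.00 and -0.01 over all genes. The 3 comparisons share the same 3 spleen EM libraries, so they are not independent of each other.

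Among the glycolytic enzymes, 14 of 16 were higher and 1 was lower in CD103+CD69+ cells, 13 were higher and 0 lower in CD103-CD69+ cells, and 14 were higher and 0 lower in CD103-CD69- cells. Tpi1, triosephosphate isomerase, which interconverts the triose phosphates, had lowest, median and highest values of 5.33, 6.03 and 6.39 in CD103+CD69+ cells, 5.63, 6.24 and 6.39 in CD103-CD69+ cells and 5.71, 5.85 and 6.56 in CD103-CD69- cells. The 3 spleen EM libraries had 3.89, 3.91 and 3.88. No tumor library of weeks 2 to 6 overlapped the spleen EM values, and the differences were 2.06 (SE 0.15, adjusted p = 8.93e-09), 2.28 (SE 0.15, adjusted p = 2.76e-09) and 2.18 (SE 0.15, adjusted p = 1.34e-08). Aldoa, the aldolase that splits fructose bisphosphate, was higher by 0.98, 1.27 and 1.31. Across all weeks the 34 tumor libraries ran from 1.46 to 2.99 for Aldoa and the 9 spleen libraries from 0.85 to 1.38, without overlap. Pkm, the pyruvate kinase that makes pyruvate, was higher by 0.89 (SE 0.10, adjusted p = 1.27e-06), 1.0 (SE 0.10, adjusted p = 3.86e-07) and 1.01 (SE 0.10, adjusted p = 8.15e-07). The tumor libraries of all weeks ran from 4.15 to 5.24, all above the 3.61, 3.90 and 3.49 of the spleen EM libraries. Tpi1, Aldoa, Pkm, Ldha and Gapdh were also called higher in all 3 tumor subsets when spleen CM or spleen Naive cells took the place of EM cells.

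Gapdh, glyceraldehyde-3-phosphate dehydrogenase, was higher by 0.83 (SE 0.19, adjusted p = 0.00261) in CD103+CD69+, 1.07 (SE 0.20, adjusted p = 0.000373) in CD103-CD69+ and 1.12 (SE 0.20, adjusted p = 0.000576) in CD103-CD69- cells. Its tumor libraries of all weeks ran from 3.88 to 5.28 and its spleen libraries from 3.45 to 3.92, which overlapped at the edge. Ldha, the lactate dehydrogenase subunit that dominates in cells making lactate, was higher by 0.74 (SE 0.11, adjusted p = 4.77e-05), 0.80 (SE 0.12, adjusted p = 3.25e-05) and 0.89 (SE 0.12, adjusted p = 2.74e-05). Pgk1, the first ATP-yielding step, was higher by 0.66 (SE 0.20, adjusted p = 0.0167), 0.62 (SE 0.20, adjusted p = 0.0276) and 0.78 (SE 0.20, adjusted p = 0.0106). Its calls were lost when spleen EM replicate 2 was left out (adjusted p up to 0.111, 0.149 and 0.0621), and in CD103-CD69+ cells also without spleen EM replicate 1. With spleen CM in place of EM cells its differences were 0.097, 0.057 and 0.22, none called (adjusted p = 0.729, 0.851 and 0.471), and with Naive cells the CD103-CD69+ call was lost (0.46, adjusted p = 0.07). Without week 6 none of the 3 Pgk1 calls stood (adjusted p = 0.0938, 0.0903 and 0.0657). Gpi1, Pgam1 and Eno1, further glycolytic enzymes, were higher by 0.70, 0.53 and 0.72 in CD103+CD69+ cells and were also called in both other subsets. Pgam1 differed by -0.84 between spleen EM and CM cells, a larger gap than the 0.53 between CD103+CD69+ and EM cells. Of the 3 phosphofructokinases, which commit sugar to glycolysis, Pfkp was higher by 0.44, 0.49 and 0.50 and Pfkl by 0.47, 0.57 and 0.94. Pfkm passed the threshold in CD103-CD69- cells (0.66) but not in the other subsets. Pfkl differed by -0.59 between spleen EM and CM cells, and by more between EM and Naive cells. Both gaps exceeded its differences from EM cells in the CD69+ subsets. RNA of Gapdh, Tpi1, Eno1, Ldha and Aldoa may share reads with processed pseudogene copies, and how the counting split such reads is not given in the sources used here.

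The isozyme pairs did not move alike. Ldhb, the lactate dehydrogenase subunit favored in respiring cells, had lowest, median and highest values of 2.58, 3.48 and 4.31 in CD103+CD69+ cells, against 4.53, 5.40 and 4.20 in spleen EM libraries. The difference was -1.26 (SE 0.44, adjusted p = 0.0367). That call was lost without Week2 CD103+CD69+ replicate 2, Week4 CD103+CD69+ replicate 1, Week6 CD103+CD69+ replicate 1, spleen EM replicate 1 or spleen EM replicate 2 (adjusted p up to 0.189). In CD103-CD69+ cells Ldhb differed by -1.08 (95% interval -2.03 to -0.13, adjusted p = 0.0789) and in CD103-CD69- cells by 0.15 (95% interval -0.80 to 1.10, adjusted p = 0.849), neither past the threshold. Among the hexokinases, which trap glucose in the cell, Hk1 was higher by 0.20, 0.32 and 0.48. Hk2, the inducible form, was higher by 0.76 (SE 0.17, adjusted p = 0.00193) in CD103+CD69+ cells and did not pass in CD103-CD69+ cells (0.35, adjusted p = 0.136) or CD103-CD69- cells (0.37, adjusted p = 0.137). Aldoc, another aldolase, was higher by 1.03 (SE 0.34, adjusted p = 0.0281), 1.06 (SE 0.35, adjusted p = 0.0284) and 2.07 (SE 0.35, adjusted p = 0.000404). The Aldoc call in CD103+CD69+ cells was lost without spleen EM replicate 1 or 3 (adjusted p up to 0.259). With Naive in place of EM cells the Aldoc difference turned to -1.70 in CD103+CD69+ and -0.65 in CD103-CD69- cells, and with CM cells to -1.18 and -0.14.

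**Figure D2:**
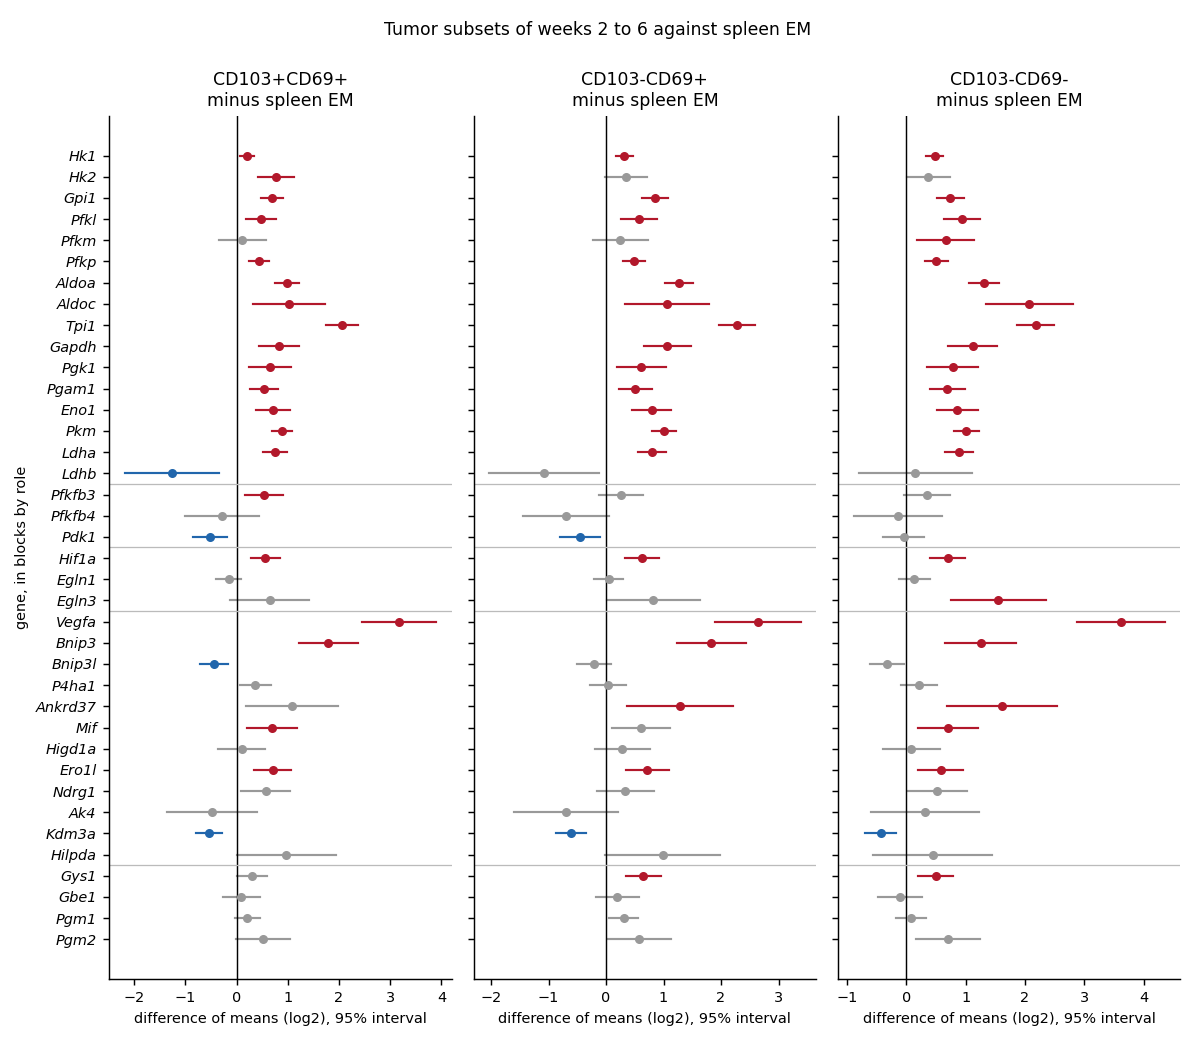
Difference of each measured gene between a tumor subset of weeks 2 to 6 and spleen EM cells (log2, point, with its 95% interval), in 1 panel per subset, red for higher calls, blue for lower calls and grey for no call. Tpi1, Vegfa and Bnip3 lie far to the right in all panels, and Kdm3a lies to the left in all panels.

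Among the hypoxia-induced genes, 4 of 12 were higher and 2 lower in CD103+CD69+ cells, 4 higher and 1 lower in CD103-CD69+ cells, and 5 higher and 1 lower in CD103-CD69- cells. Vegfa, which encodes a secreted factor that draws in blood vessels, had lowest, median and highest values of 9.34, 10.25 and 11.83 in CD103+CD69+, 8.14, 10.09 and 11.02 in CD103-CD69+ and 9.66, 10.19 and 12.37 in CD103-CD69- cells. The spleen EM libraries had 7.03, 7.35 and 7.01, below all of them. It was higher by 3.18 (SE 0.35, adjusted p = 1.31e-06), 2.64 (SE 0.36, adjusted p = 1.57e-05) and 3.61 (SE 0.36, adjusted p = 8.15e-07). Against spleen Naive cells the sign of Vegfa turned in 2 of the 3 subsets, with differences of -0.14 in CD103+CD69+ and -0.67 in CD103-CD69+ cells, and it was not called in CD103-CD69- cells (0.30, adjusted p = 0.543). Against spleen CM cells it was not called in CD103+CD69+ (0.75, adjusted p = 0.0975) or CD103-CD69+ cells (0.21, adjusted p = 0.688). Bnip3, which directs mitochondria to degradation, had lowest, median and highest values of 10.53, 11.78 and 12.29 in CD103+CD69+ cells, against 9.82, 10.34 and 9.55 in spleen EM libraries. It was higher by 1.79 (SE 0.28, adjusted p = 6.69e-05), 1.83 (SE 0.29, adjusted p = 7.80e-05) and 1.25 (SE 0.29, adjusted p = 0.00458), although without week 6 the call was lost in CD103-CD69- cells (difference 0.60, adjusted p = 0.176). Against spleen Naive cells Bnip3 passed in none of the 3 subsets, with differences of 0.57, 0.61 and 0.03, and against spleen CM cells it did not pass in CD103-CD69- cells (0.23, adjusted p = 0.612).

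Ero1l, an oxidase of protein folding in the endoplasmic reticulum, was higher by 0.70, 0.72 and 0.58. Ankrd37, a small HIF target, was higher by 1.28 (SE 0.44, adjusted p = 0.034) in CD103-CD69+ and 1.61 (SE 0.44, adjusted p = 0.0144) in CD103-CD69- cells and did not pass in CD103+CD69+ cells (1.09, adjusted p = 0.0635). Its calls were lost without spleen EM replicate 2 (adjusted p up to 0.323 and 0.137), and in CD103-CD69+ cells also without spleen EM replicate 1, Week4 CD103-CD69+ replicate 2 or Week6 CD103-CD69+ replicate 1. Neither Ankrd37 call stood against spleen CM (adjusted p = 0.167 and 0.075) or Naive cells (0.367 and 0.148), and that in CD103-CD69+ cells was lost without week 6 (0.0813). Mif, a cytokine, was higher by 0.69 (SE 0.24, adjusted p = 0.0314) in CD103+CD69+ cells, a call lost without spleen EM replicate 1 or 3 (adjusted p up to 0.192). In CD103-CD69- cells it was higher by 0.70 (SE 0.24, adjusted p = 0.0488), a call lost in 10 of 11 omissions of 1 library, all but that of spleen EM replicate 2, and also with the near-alike week 4 libraries averaged (adjusted p = 0.0561) or without week 6 (adjusted p = 0.123). Without week 6 the CD103+CD69+ call was lost as well (adjusted p = 0.0524). Neither call stood against spleen CM (adjusted p = 0.24 and 0.307) or Naive cells (0.0513 and 0.07). Mif did not pass in CD103-CD69+ cells (0.61, adjusted p = 0.0609).

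Kdm3a, a histone demethylase induced by HIF-1α, went the other way. It was lower in all 3 subsets, with differences of -0.55 (SE 0.12, adjusted p = 0.00194), -0.60 (SE 0.13, adjusted p = 0.0011) and -0.43 (SE 0.13, adjusted p = 0.0188), and the last of these was lost without spleen EM replicate 1 or 3 (adjusted p up to 0.12). Against spleen CM cells in place of EM the sign of Kdm3a turned in CD103+CD69+ (0.05) and CD103-CD69- cells (0.16), and in CD103-CD69+ cells it was -0.0067 (adjusted p = 0.971). Bnip3l, a relative of Bnip3, was lower in CD103+CD69+ cells (-0.44, SE 0.13, adjusted p = 0.0178), a call lost without spleen EM replicate 1 or 3 (adjusted p up to 0.0874), and it was -0.042 against spleen CM and -0.13 against Naive cells, neither called. P4ha1, Higd1a, Ndrg1, Ak4 and Hilpda passed in none of the 3 comparisons, with differences between -0.70 (Ak4 in CD103-CD69+ cells) and 0.98 (Hilpda in CD103-CD69+ cells).

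Of the oxygen-sensing genes, Hif1a was higher by 0.56 (SE 0.14, adjusted p = 0.00409), 0.62 (SE 0.14, adjusted p = 0.00219) and 0.70 (SE 0.14, adjusted p = 0.00187). With spleen Naive in place of EM cells it was 0.24 (adjusted p = 0.157) in CD103+CD69+ and 0.30 (adjusted p = 0.0834) in CD103-CD69+ cells, and neither was called. Egln3 was higher in CD103-CD69- cells by 1.55 (SE 0.39, adjusted p = 0.0078) and passed in neither of the other subsets. Its call was lost against spleen CM (1.0, adjusted p = 0.068) and Naive cells (0.78, adjusted p = 0.122). Egln1 passed in none of the 3 comparisons. Of the flux regulators, Pdk1, the kinase that keeps pyruvate out of the mitochondria and a HIF-1α target, was lower in CD103+CD69+ (-0.52, SE 0.16, adjusted p = 0.0196) and CD103-CD69+ cells (-0.45, SE 0.17, adjusted p = 0.0438). The CD103+CD69+ call was lost without spleen EM replicate 1 or 2 (adjusted p up to 0.0671), and the CD103-CD69+ call was lost in 8 of 11 omissions, each of the 3 spleen EM libraries among them (adjusted p up to 0.125). Pfkfb3, which makes the activator of phosphofructokinase, was higher by 0.52 in CD103+CD69+ cells and passed in neither other subset. Of the glycogen enzymes, glycogen synthase Gys1 was higher in CD103-CD69+ (0.65) and CD103-CD69- cells (0.49). Gys1 differed by -0.71 between spleen EM and CM cells, a larger gap than either of these.

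**Figure D3:**
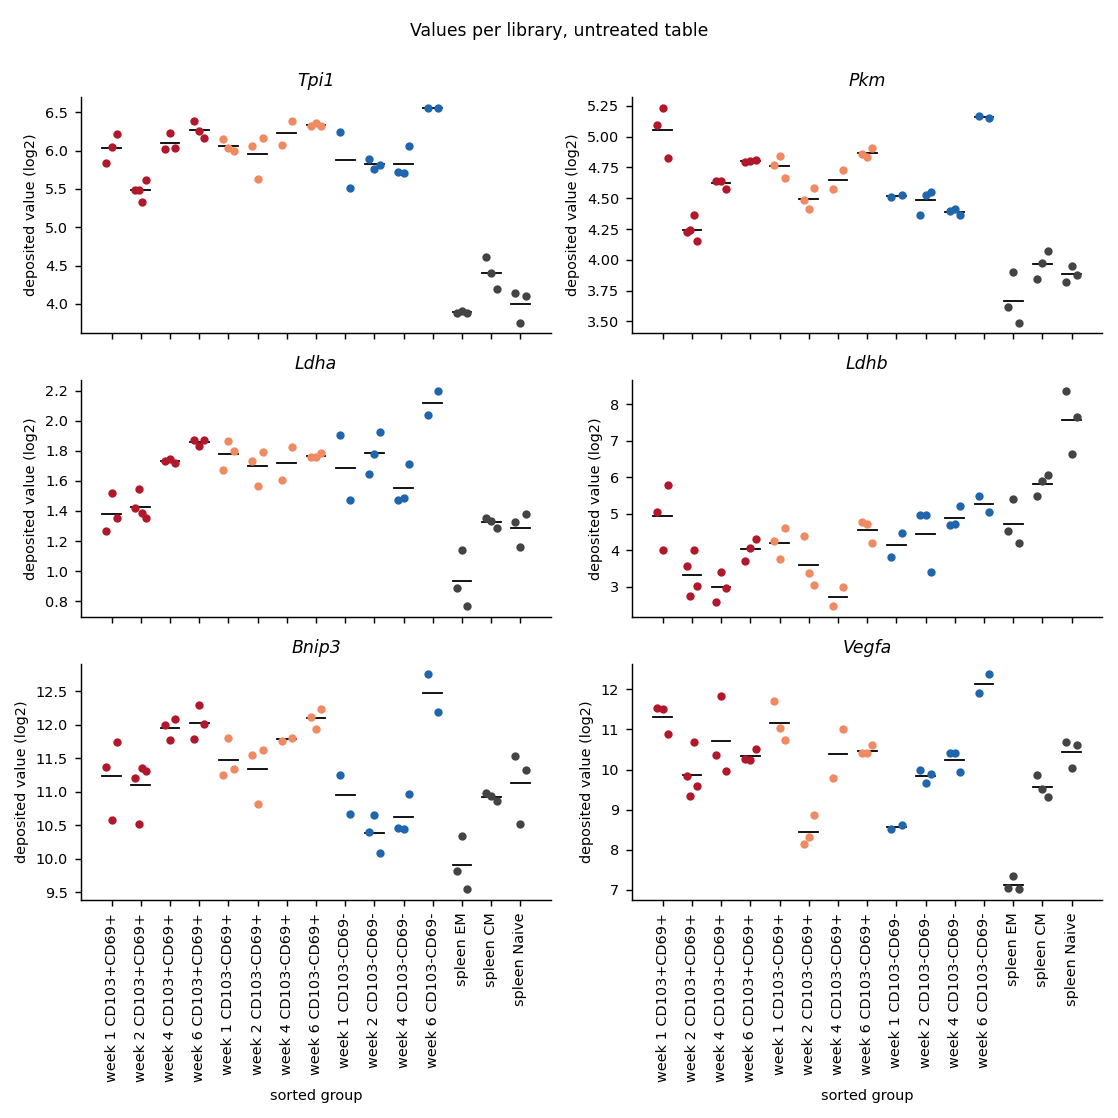
Value of Tpi1, Pkm, Ldha, Ldhb, Bnip3 and Vegfa in each of the 43 untreated libraries (log2, 1 point per library, horizontal line for the group mean), by group. All tumor points of Tpi1 and Pkm stand above all spleen points, Ldha separates less, and Ldhb is highest in spleen Naive cells.

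Other cell types moved with this comparison. Of 6 measured markers of tumor epithelium, 5 were higher in each tumor subset than in spleen EM cells, with median differences of 2.99, 2.86 and 2.78. The 3 B-cell markers were all lower, with medians of -2.26, -1.98 and -2.34, and 4 of 9 myeloid markers were higher and 1, 1 and 2 lower. The 16 genes of T-cell identity had medians of -0.08, 0.09 and 0.01. Because levels are not abundances, no marker can be said to be at 0. For each library, the values of a list were averaged after centring each gene on its mean. The group means of the 6 epithelial markers ran from -0.94 to 1.71 in the tumor groups of weeks 2 to 6, against -2.58 in spleen EM, -1.09 in spleen CM and -1.69 in spleen Naive cells. The group means of the 16 glycolytic enzymes ran from -0.26 to 0.63 in the same tumor groups, against -0.66 in spleen EM, -0.13 in spleen CM and -0.31 in spleen Naive cells. The span of the tumor groups took in spleen CM for the glycolytic enzymes. The part of the epithelial, B-cell and myeloid markers in these results was not tested.

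**Figure D4:**
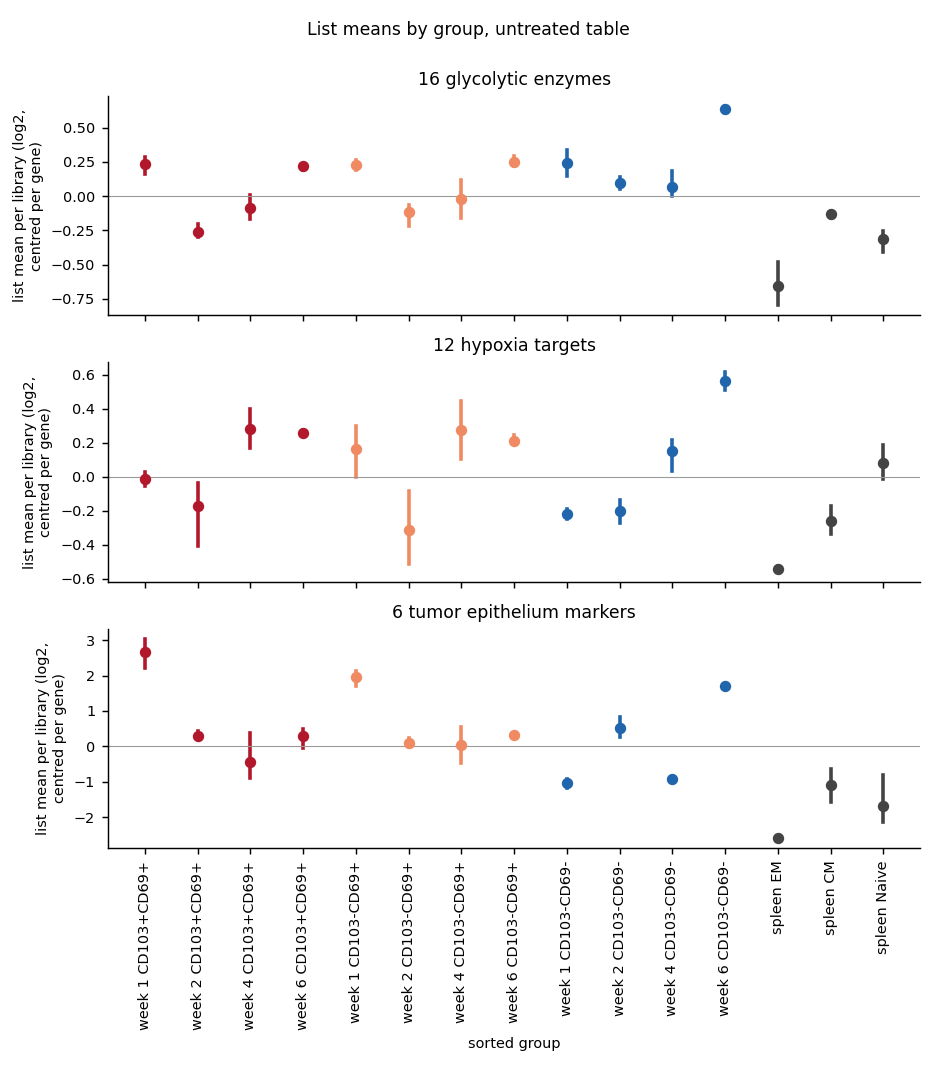
Mean over libraries (dot) and range of libraries (line) of 3 averages of centred log2 values, for 16 glycolytic enzymes, 12 hypoxia-induced genes and 6 markers of tumor epithelium, in each untreated group. The glycolytic average is highest in week 6 CD103-CD69- cells, at 0.63, and lowest in spleen EM cells, at -0.66, followed by spleen Naive cells at -0.31 and week 2 CD103+CD69+ cells at -0.26.

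Of 40 measured genes of neighboring pathways (glucose and lactate transport, pyruvate dehydrogenase, pentose phosphates, further HIF genes), 9 were higher and 6 lower in CD103+CD69+ cells than in spleen EM cells. In CD103-CD69+ cells 8 were higher and 6 lower, and in CD103-CD69- cells 9 were higher and 6 lower. Slc16a3, the lactate exporter induced by HIF-1α, was higher by 1.91, 1.69 and 1.52. The glucose transporters split. Slc2a1 was higher by 0.47, 0.56 and 0.75, while Slc2a3 was lower, at -0.65, -0.42 and -0.65. Bhlhe40, a transcription factor induced by low oxygen and by T-cell activation, was higher by 1.40, 1.73 and 0.88. Bpgm, whose enzyme diverts a glycolytic intermediate and is abundant in red cells, was lower, at -2.16, -1.34 and -1.11. The 2 measured erythroid markers had median differences of -4.10, -1.34 and -1.14 in the same comparisons, and their part in the Bpgm values was not tested.

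Within the tumor, CD103+CD69+ and CD103-CD69+ cells of weeks 2 to 6 were compared with 10 and 8 libraries. None of the 38 genes passed the threshold (limma), against 0.417% of all genes, and 10 of the 38 had an unadjusted p below 0.05, against 15.2% of all genes. With residual degrees of freedom from the design alone 5 passed (9.89% of all genes), and with week 1 included 2 passed (3.48% of all genes). The median difference was -0.07, against -0.03 over all genes. Hk2 had the lowest p of the genes named by rule and differed by 0.41 (95% interval 0.16 to 0.67, adjusted p = 0.115). It was called with week 1 included (0.40, adjusted p = 0.0391), with degrees of freedom from the design (adjusted p = 0.00913) and when only the groups compared were fitted (adjusted p = 0.0472). Its lowest, median and highest values were 6.06, 6.69 and 7.08 in CD103+CD69+ and 5.94, 6.18 and 6.60 in CD103-CD69+ cells, which overlap. Ldha differed by -0.05 (95% interval -0.22 to 0.12, adjusted p = 0.811), Gapdh by -0.24 (95% interval -0.53 to 0.05, adjusted p = 0.442), Pkm by -0.11 (95% interval -0.26 to 0.03, adjusted p = 0.473), Ldhb by -0.18 (95% interval -0.85 to 0.49, adjusted p = 0.846) and Pgk1 by 0.04 (95% interval -0.26 to 0.34, adjusted p = 0.929). Hif1a differed by -0.07 (95% interval -0.27 to 0.14, adjusted p = 0.813), Bnip3 by -0.04 (95% interval -0.47 to 0.38, adjusted p = 0.946) and Mif by 0.08 (95% interval -0.28 to 0.44, adjusted p = 0.872). All 16 T-cell identity genes were negative (median -0.28) and all 9 myeloid markers positive (median 0.29), without any call, and their part was not tested.

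Set against CD103-CD69- cells of the same weeks, CD103+CD69+ cells had lower levels of several glycolytic enzymes and of the oxygen sensors, and a higher level of Hk2. Of the 38 genes, 1 was higher and 9 lower, against 9.8% and 13.5% of all genes. Ldhb had lowest, median and highest values of 2.58, 3.48 and 4.31 in CD103+CD69+ and 3.39, 4.97 and 5.49 in CD103-CD69- cells, which overlap, and differed by -1.41 (SE 0.32, adjusted p = 0.00345). Aldoc differed by -1.05 (SE 0.25, adjusted p = 0.00452), with values of 9.55, 10.37 and 11.51 against 10.41, 11.50 and 12.30 (lowest, median and highest). Hk1 differed by -0.27 (SE 0.05, adjusted p = 0.000461) without overlap of the libraries, 9.13 to 9.33 in CD103+CD69+ against 9.36 to 9.74 in CD103-CD69- cells, as did 3.06% of all genes. Pfkl (-0.46), Pfkm (-0.55) and Aldoa (-0.32) were lower as well. So were Pdk1 (-0.47) and the sensors Egln1 (-0.29) and Egln3 (-0.90, SE 0.27, adjusted p = 0.0203). Hk2 was higher by 0.39 (SE 0.12, adjusted p = 0.0277).

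Gapdh (-0.29, adjusted p = 0.145), Ldha (-0.15, adjusted p = 0.21), Pkm (-0.12, adjusted p = 0.227), Pgk1 (-0.12, adjusted p = 0.572), Hif1a (-0.14, adjusted p = 0.331), Bnip3 (0.54, adjusted p = 0.0609) and Mif (0.00, adjusted p = 0.995) did not pass between CD103+CD69+ and CD103-CD69- cells. With a term for the split of sample codes there were 2 calls, and the differences of Ldhb (-1.57, adjusted p = 0.0728), Aldoc (-1.12), Egln3 (-1.19), Hk2 (0.48), Pdk1 (-0.40) and Pfkm (-0.40) were not called. Without week 6 there were 5 calls, and with the near-alike week 4 libraries averaged there were 10. No share over all genes stands beside the counts of these fits, so they are not read as particular to these genes. With week 1 included Aldoc, Egln3, Hk2 and Pfkm were not called (adjusted p = 0.0837, 0.107, 0.148 and 0.108). Without week 6 the calls of Aldoc, Egln3, Hk2 and Pdk1 were lost (adjusted p = 0.112, 0.192, 0.123 and 0.0549). Pfkm, Egln3 and Hk2 lost their calls without Week6 CD103-CD69- replicate 2 (adjusted p up to 0.0628, 0.0599 and 0.101), and Hk2 also without Week2 CD103-CD69- replicate 2 or Week6 CD103+CD69+ replicate 3. The 3 stromal markers were all lower in CD103+CD69+ cells (median -1.21), as were the 2 erythroid markers (median -2.95) and 2 of 6 epithelial markers, while 1 of 9 myeloid and 3 of 11 proliferation genes were higher. Their part in these results was not tested.

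CD103-CD69+ cells had 0 genes higher and 7 lower than CD103-CD69- cells in weeks 2 to 6, against 8.33% and 8.64% of all genes. Ldhb differed by -1.23 (SE 0.34, adjusted p = 0.0164), with lowest, median and highest values of 2.47, 3.78 and 4.76 in CD103-CD69+ and 3.39, 4.97 and 5.49 in CD103-CD69- cells. Aldoc differed by -1.02 (SE 0.26, adjusted p = 0.0105), Vegfa by -0.97 (SE 0.27, adjusted p = 0.0155) and Ak4, a mitochondrial adenylate kinase, by -1.01 (SE 0.33, adjusted p = 0.0369). Pdk1 (-0.41), Pfkl (-0.36) and Hk1 (-0.16) were lower too. Ak4 lost its call in 12 of 16 omissions of 1 library (adjusted p up to 0.0914), Pdk1 in 5 (up to 0.127), Pfkl in 3 (up to 0.0999), Vegfa in 2 (up to 0.0689) and Ldhb in 1 (0.0544). Gapdh (-0.05), Ldha (-0.09), Pkm (-0.01), Pgk1 (-0.16), Hk2 (-0.03), Hif1a (-0.07), Bnip3 (0.58) and Mif (-0.08) did not pass. None passed with a term for the sample-code split, where the differences were -1.40 for Ldhb, -1.10 for Aldoc, -0.96 for Vegfa, -0.53 for Pfkl, -0.65 for Ak4 and -0.33 for Pdk1. With week 1 included Aldoc was -0.42 (adjusted p = 0.214) and Vegfa -0.084 (adjusted p = 0.834), and neither was called. Of the 38 genes, 4 passed without week 6. With the near-alike week 4 libraries averaged 5 passed, and Ak4 was not called (adjusted p = 0.0524). No share over all genes stands beside the counts of these alternative fits, so they are not read as particular to these genes. Leaving out 1 library gave 2 to 9 calls, with 2 without Week6 CD103-CD69- replicate 2, 3 without Week6 CD103-CD69- replicate 1 or Week4 CD103-CD69+ replicate 1, and 4 without Week2 CD103-CD69- replicate 3, Week4 CD103-CD69+ replicate 2 or Week6 CD103-CD69+ replicate 1. Stromal markers had a median difference of -0.80 (1 of 3 lower), and their part was not tested.

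At week 1, CD103+CD69+ cells had lower Pfkp than both other subsets. They differed from CD103-CD69+ cells in 5 genes, 2 higher and 3 lower, against 5.92% and 11.5% of all genes. Pfkp, the platelet-type phosphofructokinase that is common in lymphocytes, had 5.19, 5.35 and 5.12 in CD103+CD69+, 6.11, 6.13 and 6.05 in CD103-CD69+ and 6.37 and 6.18 in CD103-CD69- libraries. Every CD103+CD69+ library lay below all others, with differences of -0.88 (SE 0.11, adjusted p = 3.09e-05) against CD103-CD69+ and -1.06 (SE 0.13, adjusted p = 7.42e-06) against CD103-CD69- cells. Higd1a, a mitochondrial protein induced by low oxygen, was lower than in CD103-CD69+ cells (-0.96, SE 0.28, adjusted p = 0.02), and so was Ldha (-0.40, SE 0.14, adjusted p = 0.0499). Hk1 (0.29) and Gys1 (0.61) were higher. The calls of Hk1, Gys1, Ldha and Higd1a were each lost in some omissions of 1 library, with 2 calls left without Week1 CD103-CD69+ replicate 1 and 3 without replicate 3. Ldha also lost its call without Week1 CD103-CD69+ replicate 2, Week1 CD103+CD69+ replicate 1 or Week1 CD103+CD69+ replicate 3 (adjusted p up to 0.145), and Hk1, Gys1 and Higd1a reached 0.0591, 0.0752 and 0.0731. When only the groups compared were fitted, none of the 5 was called (adjusted p = 0.0607 for Pfkp), and against CD103-CD69- cells Pfkp, Pkm, Gys1 and Ndrg1 were not called (0.12, 0.376, 0.253 and 0.122).

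Against week 1 CD103-CD69- cells, CD103+CD69+ cells had 4 genes higher and 1 lower (11.8% and 10.9% of all genes), and CD103-CD69+ cells had 1 higher and 0 lower (5.48% and 1.78% of all genes). Vegfa had 11.55, 11.50 and 10.89 in CD103+CD69+, 11.70, 11.03 and 10.74 in CD103-CD69+ and 8.52 and 8.62 in CD103-CD69- libraries. It was higher in CD103+CD69+ cells by 2.74 (SE 0.48, adjusted p = 0.000379) and in CD103-CD69+ cells by 2.59 (SE 0.48, adjusted p = 0.00404). Pkm (0.53, SE 0.13, adjusted p = 0.00696), Gys1 (0.90, SE 0.19, adjusted p = 0.00218) and Ndrg1 (1.14, SE 0.32, adjusted p = 0.0134), a stress-induced gene, were higher in CD103+CD69+ than in CD103-CD69- cells. Those 3 calls and the Vegfa call in CD103-CD69+ cells were lost without Week1 CD103-CD69- replicate 1 (adjusted p up to 0.0583, 0.078, 0.181 and 0.0552), which left 2 of the 5 calls in CD103+CD69+ cells and 0 in CD103-CD69+ cells. Epithelial markers had median differences of 4.67 and 3.83 in these 2 comparisons (4 of 6 higher in each) and 0.71 between CD103+CD69+ and CD103-CD69+ cells. T-cell identity genes were lower in CD103+CD69+ cells, 13 of 16 against CD103-CD69+ and 11 of 16 against CD103-CD69- cells, and 8 and 7 of 11 proliferation genes were lower. The part of these markers in the week 1 results was not tested.

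The subset differences at week 1 were also tested against those of weeks 2 to 6. Of the difference between CD103+CD69+ and CD103-CD69+ cells, 3 of 38 genes changed between these times (14.7% of all genes), among them Pfkp (-0.83, SE 0.13, adjusted p = 0.00036). Of the difference between CD103+CD69+ and CD103-CD69- cells, 8 of 38 changed (25.8% of all genes), among them Vegfa (3.18, SE 0.54, adjusted p = 0.000267) and Ldhb (2.20, SE 0.69, adjusted p = 0.0236). The week 1 difference of Ldhb was 0.79, against -1.11 in week 2, -1.89 in week 4 and -1.25 in week 6, and its change was not called without Week1 CD103-CD69- replicate 1 or Week1 CD103+CD69+ replicate 3 (adjusted p up to 0.158). Of the difference between CD103-CD69+ and CD103-CD69- cells, 2 of 38 changed (6.53% of all genes), Vegfa and Aldoc.

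From week 1 to week 2, CD103+CD69+ cells had lower levels of most glycolytic enzymes at week 2. Of the 38 genes 2 were higher and 14 lower, among them 10 of the 16 glycolytic enzymes, against 17.9% and 16.1% of all genes. Pkm had 4.23, 4.24, 4.36 and 4.15 at week 2, against 5.10, 5.24 and 4.82 at week 1, without overlap, and fell by 0.81 (SE 0.11, adjusted p = 1.71e-05). Hk2 had 6.11, 6.06, 6.28 and 6.07 at week 2, against 7.15, 7.03 and 7.28 at week 1, a difference of -1.03 (SE 0.20, adjusted p = 0.000438). Tpi1 (-0.56), Aldoa (-0.59), Eno1 (-0.61), Pfkl (-0.76), Pfkm (-1.25) and Vegfa (-1.45) fell too. Ldha (0.05), Gapdh (0.02), Pgk1 (-0.33), Bnip3 (-0.13) and Mif (0.24) did not pass. Pfkp (0.70) and Higd1a (1.21) rose.

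Other calls between weeks 2 and 1 in CD103+CD69+ cells depended on single libraries. Ldhb (-1.61) lost its call without Week1 CD103+CD69+ replicate 1, Week1 CD103+CD69+ replicate 3 or Week2 CD103+CD69+ replicate 2 (adjusted p up to 0.114). Ak4 (-1.34) lost it without Week1 CD103+CD69+ replicates 1 or 2 or Week2 CD103+CD69+ replicates 1 or 2 (up to 0.127), and Hif1a (-0.45) in 6 of 7 omissions, all but that of Week2 CD103+CD69+ replicate 4 (up to 0.101). In the same comparison 5 of 6 epithelial markers fell (median -2.42), 4 of 9 myeloid markers fell, and 13 of 16 T-cell identity and 9 of 11 proliferation genes rose. Their part in the lower glycolytic levels was not tested. In CD103-CD69+ cells 1 of the 38 genes passed (2.67% of all genes). That was Vegfa, with 8.14, 8.31 and 8.87 at week 2 against 11.70, 11.03 and 10.74 at week 1, a difference of -2.72 (SE 0.43, adjusted p = 0.00186), beside an epithelial median of -1.88. In CD103-CD69- cells Hk2 passed (3.12% of all genes), with 6.39, 5.80 and 6.32 at week 2 against 7.71 and 7.08 at week 1, a difference of -1.22 (SE 0.23, adjusted p = 0.00966) that was lost without Week1 CD103-CD69- replicate 1 (adjusted p = 0.239). When only the groups compared were fitted it was not called either (adjusted p = 0.315), nor were Hif1a and Ldhb in CD103+CD69+ cells (0.168 and 0.065). The epithelial median of the CD103-CD69- comparison was 2.22.

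From week 2 to week 6 the median of the 38 genes was positive in each subset, at 0.32 in CD103+CD69+, 0.23 in CD103-CD69+ and 0.50 in CD103-CD69- cells, against 0.06, 0.05 and 0.05 over all genes. Of the 38 genes 34, 34 and 35 had a positive difference, but only 3, 1 and 5 passed the threshold, all upward, against 0.199%, 0.492% and 0.53% of all genes. In CD103+CD69+ cells Eno1 had 2.17, 2.23 and 2.14 at week 6, against 1.14, 1.40, 0.93 and 1.29 at week 2, a difference of 0.99 (SE 0.19, adjusted p = 0.0289). Aldoa (0.72, SE 0.13, adjusted p = 0.0272) and Pkm (0.56, SE 0.11, adjusted p = 0.0332) rose as well. Each of these 3 calls was lost in 6 of 7 omissions of 1 library, any of the 3 week 6 libraries included (adjusted p up to 0.189, 0.188 and 0.198).

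In CD103-CD69+ cells Vegfa had 10.40, 10.40 and 10.61 at week 6, against 8.14, 8.31 and 8.87 at week 2, a difference of 2.03 (SE 0.43, adjusted p = 0.0307) that no omission of 1 library left past the threshold (adjusted p up to 0.157). In CD103-CD69- cells Bnip3 had 12.75 and 12.18 at week 6, against 10.40, 10.66 and 10.09 at week 2, a difference of 2.08 (SE 0.39, adjusted p = 0.0145). Vegfa (2.29, SE 0.48, adjusted p = 0.0332), Gys1 (1.08, SE 0.19, adjusted p = 0.0117), Aldoa (0.89, SE 0.16, adjusted p = 0.0117) and Pkm (0.68, SE 0.13, adjusted p = 0.0212) rose as well. Without Week6 CD103-CD69- replicate 1 or replicate 2 none of the 5 was called (adjusted p up to 0.216 for Bnip3 and 0.289 for Vegfa), and there were 3 calls without Week2 CD103-CD69- replicate 1 and 1 without Week2 CD103-CD69- replicate 3. The 9 myeloid markers were all positive in each of the 3 comparisons, with medians of 0.92, 1.49 and 0.72, and the 6 epithelial markers were all positive in CD103-CD69- cells (median 1.21). Their part in the higher week 6 levels was not tested. When only the groups compared were fitted, Bnip3, Aldoa, Gys1 and Pkm were not called in CD103-CD69- cells (adjusted p = 0.0767, 0.115, 0.145 and 0.14) and Pkm was not called in CD103+CD69+ cells (adjusted p = 0.0543).

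In the spleen, memory cells had lower Ldhb and Pdk1 and higher Eno1 and Pfkp than Naive cells. EM cells had 2 of the 38 genes higher and 7 lower than Naive cells, against 12.6% and 12% of all genes. Ldhb had 4.53, 5.40 and 4.20 in EM, 5.48, 5.90 and 6.07 in CM and 8.36, 6.64 and 7.66 in Naive libraries, so that Naive lay above both memory subsets without overlap. Its difference was -2.85 (SE 0.55, adjusted p = 0.000587) for EM and -1.74 (SE 0.55, adjusted p = 0.0304) for CM against Naive cells. Vegfa had 7.03, 7.35 and 7.01 in EM, against 10.69, 10.03 and 10.61 in Naive libraries, a difference of -3.31 (SE 0.43, adjusted p = 6.87e-06). Aldoc (-2.72, SE 0.42, adjusted p = 5.77e-05), Pdk1 (-1.17, SE 0.20, adjusted p = 0.000158), Pfkl (-0.86), Ndrg1 (-0.78) and Bnip3 (-1.22) were also lower in EM than in Naive cells. The Bnip3 call was lost without spleen Naive replicate 1 or spleen EM replicate 3 (adjusted p up to 0.0691). Eno1 (0.90, SE 0.20, adjusted p = 0.00206) and Pfkp (0.54) were higher in EM cells, beside 10 of 11 proliferation genes (median 2.20).

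CM cells had 6 genes higher and 4 lower than Naive cells (10.1% and 8.7% of all genes). Pgam1 (1.08, SE 0.17, adjusted p = 0.000107), Eno1 (0.98), Pfkp (0.82), Gys1 (0.77), Gpi1 (0.39) and Hk1 (0.30) were higher, and Pdk1 (-0.78), Kdm3a (-0.72) and Pgm1 (-0.49) lower beside Ldhb. Gpi1 lost its call in all 6 omissions of 1 library (adjusted p up to 0.107), and Ldhb lost it without spleen Naive replicate 1, spleen Naive replicate 3, spleen CM replicate 1 or spleen CM replicate 2 (up to 0.155). Pgm1 lost it without spleen Naive replicate 1, spleen Naive replicate 3 or spleen CM replicate 3 (up to 0.0829), and Hk1 without spleen Naive replicate 3 (0.0513), which gave 6 calls. EM cells had 1 gene higher and 7 lower than CM cells (8.21% and 7.19% of all genes), and all 16 glycolytic enzymes had a negative difference (median -0.37, all genes 0.01). Pgam1 had 2.65, 2.81 and 2.55 in EM, against 3.66, 3.49 and 3.38 in CM libraries, a difference of -0.84 (SE 0.17, adjusted p = 0.00212). Vegfa (-2.43), Aldoc (-2.21), Gys1 (-0.71) and Gpi1 (-0.55) were lower as well. Bnip3 (-1.02) and Pfkl (-0.59) were lower with calls lost in 5 and 4 of 6 omissions, spleen EM replicates 1 and 3 and spleen CM replicates 1 and 2 in both (up to 0.187 and 0.123), and without spleen EM replicate 3 there were 5 calls. Kdm3a (0.59) was higher in EM cells, except without spleen CM replicate 3 or spleen EM replicate 3 (up to 0.0616). Of 6 epithelial markers 2 were lower in EM than in CM cells (median -0.74), as were 3 of 9 myeloid markers, and their part was not tested. When only the groups compared were fitted, Eno1 and Pfkp were not called in EM against Naive cells (adjusted p = 0.0782 and 0.216), Eno1, Gpi1, Gys1, Hk1, Kdm3a and Pgm1 were not called in CM against Naive cells, and Gys1, Kdm3a, Pfkl and Pgam1 were not called in EM against CM cells.

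Under checkpoint blockade at day 40, Hk2 was the gene of the list that passed the threshold. It had 10.47, 10.49 and 10.55 in CD103+CD69+, 10.30, 10.32 and 10.18 in CD103-CD69+ and 9.50 and 9.50 in CD103-CD69- libraries. It was higher in CD103+CD69+ than in CD103-CD69- cells by 1.01 (SE 0.10, adjusted p = 0.0109) and higher in CD103-CD69+ than in CD103-CD69- cells by 0.77 (SE 0.10, adjusted p = 0.0249). The second call was lost without either CD103-CD69- library (adjusted p up to 0.0716). In these 2 comparisons 1 of 38 genes passed in each, against 7.49% and 3.83% of all genes. The median difference of the 38 genes was 0.21 and 0.23, against 0.01 and 0.04 over all genes. Some libraries of this table lay close together. Over all genes the SD of the difference was 0.202 between the 2 CD103-CD69- libraries and 0.136 between CD103+CD69+ replicates 1 and 2. The median of the 7 within-group pairs was 0.512. The Hk2 calls rest on these libraries and on 2 residual degrees of freedom. Pgk1 had 6.38, 6.36 and 6.32 in CD103+CD69+, 6.65, 6.90 and 6.59 in CD103-CD69+ and 5.90 and 5.98 in CD103-CD69- libraries. Bnip3 had 6.0, 5.99 and 6.05 in CD103+CD69+, 6.02, 6.30 and 5.77 in CD103-CD69+ and 4.88 and 4.97 in CD103-CD69- libraries. Pdk1 ran the other way, with 7.39, 7.42 and 7.52 in CD103+CD69+, 7.48, 7.39 and 7.36 in CD103-CD69+ and 8.22 and 8.19 in CD103-CD69- libraries. The difference of CD103+CD69+ from CD103-CD69- cells was 0.41 (adjusted p = 0.286) for Pgk1, 1.09 (adjusted p = 0.0776) for Bnip3 and -0.76 (adjusted p = 0.0522) for Pdk1.

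**Figure D5:**
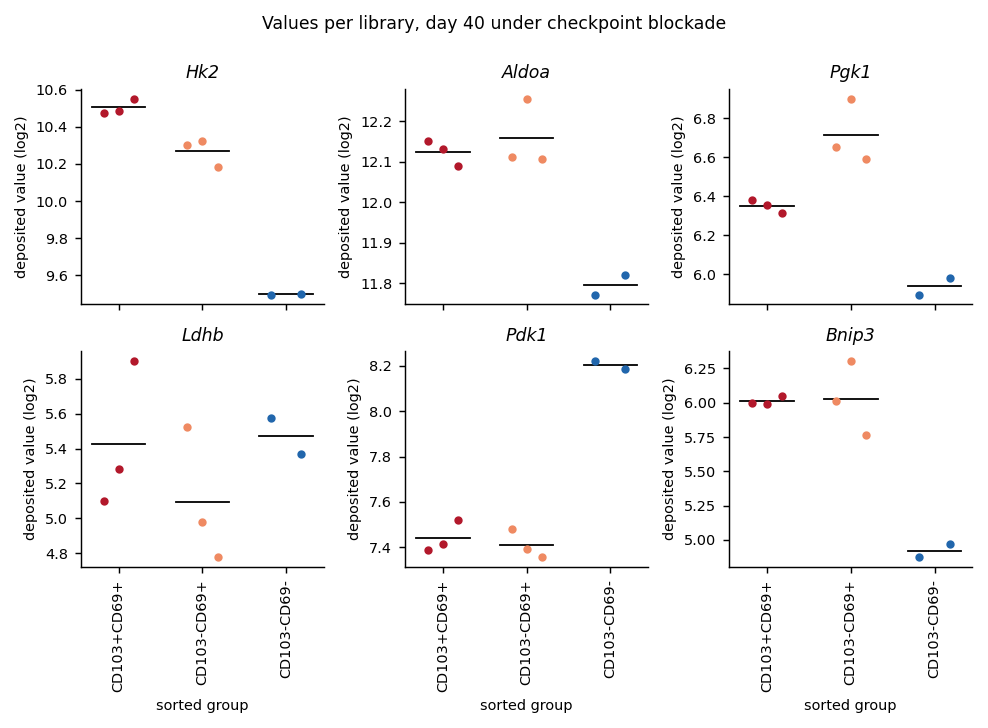
Value of Hk2, Aldoa, Pgk1, Ldhb, Pdk1 and Bnip3 in each of the 8 checkpoint-blockade libraries (log2, 1 point per library, horizontal line for the group mean), by subset. The Hk2 and Bnip3 points of both CD69+ subsets stand above those of CD103-CD69- cells, and the Pdk1 points stand below them.

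The other genes named by rule did not pass between checkpoint-blockade CD103+CD69+ and CD103-CD69- cells, with differences of 0.11 for Gapdh, -0.03 for Ldha, -0.04 for Ldhb, 0.21 for Pkm, 0.14 for Hif1a and -0.30 for Mif. Between CD103+CD69+ and CD103-CD69+ cells 0 of 38 genes passed (limma), against 5 genes in all (0.0372%), and 5 of the 38 had an unadjusted p below 0.05, against 12.9% of all genes. With residual degrees of freedom from the design alone, 11 of 38 passed in that comparison, against 24.1% of all genes. Its interval for Hk2 was 0.02 to 0.45 and for Ldha -0.41 to -0.06. Without the intensity trend in the variance no gene of the list passed in any of these 3 comparisons, and leaving out 1 library moved the counts to between 0 and 7. Myeloid markers were higher in CD103+CD69+ than in CD103-CD69- cells (10 of 12, median 2.20), and epithelial markers had medians of 1.12 and 1.63 against CD103-CD69- cells, with 1 of 8 higher in each. Their part in the Hk2 values was not tested. The 2 tables were normalized apart and no checkpoint-blockade library stands in the untreated table, so an effect of the blockade itself was not tested.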

How the data were processed

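Sorted CD8+ T cells were profiled by 3′ RNA sequencing, with alignment to mm10 by HISAT2 and counting by HTSeq, per the submitters' processing notes, which give no versions here. The authors deposited normalized values, read here as log2 from their range; the normalization is not given in the sources used here. Depth per library is unknown, so no counting interval could be given. Each gene centred on its mean, the untreated values had rank 32 of a possible 42 and the checkpoint-blockade values rank 4 of 7. The residual degrees of freedom were therefore reduced to 18 of 28 and 2 of 5.

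Group means were fitted to all genes of each table with limma 3.58.1 (R 4.3.3, intensity trend and robust variance), with p-values adjusted by Benjamini-Hochberg across every gene in a table and calls at an adjusted p below 0.05. Pooled subsets weigh weeks 2, 4 and 6 equally. Where libraries are said not to overlap, this describes the gene named, and the share over all genes was given for Hk1 only. The called genes of largest difference, up to 6 per direction, were named, with Gapdh, Ldha, Ldhb, Pgk1, Pkm, Hk2, Hif1a, Bnip3 and Mif whatever their result; other members are given by role. The steps were tested on simulated data. The members, lists and tests were chosen with earlier results of these data known. Alternatives changed the scaling, filter, variance trend, degrees of freedom, fitted groups, replicate block, sample-code term, spleen subset, weeks and libraries; averaging the near-alike libraries, leaving out week 6 and the other spleen subsets were chosen after seeing the data. Counts given without a share over all genes are not read as particular to these genes. Promoters came from RefSeq.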

Additional observations from a re-analysis of the deposited data

Results flagged for a closer look

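In week 2 CD103+CD69+ cells, replicate 2 had a Bnip3 value of 10.5 and replicate 4 a Gbe1 value of 5.37. Each was far from the other 3 libraries of the group by Dixon's criterion, which chance meets in about 1 in 20 groups. The criterion was applied in this group alone, the only one with more than 3 libraries. Among the 38 genes tested there, some such values are met by chance.

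For 8 genes the difference between subsets at week 1 was itself different from that of weeks 2 to 6, by a test of the change in limma. Over all genes, 14.7%, 25.8% and 6.53% changed in the comparisons given next, in that order. The change is given as the week 1 difference minus that of weeks 2 to 6. For CD103+CD69+ against CD103-CD69+ cells it was 0.41 for Hk1, -0.83 for Pfkp and 0.96 for Gys1. For CD103+CD69+ against CD103-CD69- cells it was 0.36 for Hk1, -0.99 for Pfkp, 1.99 for Aldoc, 0.65 for Pkm, 2.20 for Ldhb, 3.18 for Vegfa, 1.10 for Ndrg1 and 1.09 for Gys1. For CD103-CD69+ against CD103-CD69- cells it was 2.40 for Aldoc and 3.56 for Vegfa. The changes of Aldoc, Ldhb and Ndrg1 against CD103-CD69- cells were not called without Week1 CD103-CD69- replicate 1 (adjusted p up to 0.132 for Aldoc and 0.158 for Ldhb with CD103+CD69+ cells, and up to 0.148 for Aldoc with CD103-CD69+ cells). Those of Ldhb and Ndrg1 were also not called without Week1 CD103+CD69+ replicate 3 (Ndrg1 up to 0.232 over the omissions).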

How the results depend on the processing

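The values below are counts of the 38 measured genes past the threshold. With residual degrees of freedom taken from the design there were 5 between CD103+CD69+ and CD103-CD69+ cells in weeks 2 to 6, 12 between CD103-CD69+ and CD103-CD69- cells, 8 and 7 between CD103+CD69+ and CD103-CD69+ and between CD103-CD69+ and CD103-CD69- cells at week 1, and 11, 7 and 11 at week 6 against week 2 in CD103+CD69+, CD103-CD69+ and CD103-CD69- cells. Week 2 against week 1 gave 9 in CD103-CD69+ and 7 in CD103-CD69- cells, spleen EM cells gave 15 against Naive and 17 against CM cells, the change of the subset difference over time gave 8 for CD103+CD69+ against CD103-CD69+ and 6 for CD103-CD69+ against CD103-CD69- cells, and checkpoint-blockade cells gave 11 for CD103+CD69+ against CD103-CD69+ cells, 22 for CD103+CD69+ against CD103-CD69- cells and 25 for CD103-CD69+ against CD103-CD69- cells. These settings use more degrees of freedom by construction. With them, 24.1%, 45.3% and 38.8% of all genes passed in the checkpoint-blockade comparisons, in that order. The shares were 9.89% and 31.5% in weeks 2 to 6, and 32.2% and 22.2% at week 1. In CD103-CD69+ and CD103-CD69- cells, week 2 against week 1 gave 10.5% and 15.7%, and week 6 against week 2 gave 6.78% and 7.05%. The changes over time gave 30.8% and 19.5%. Of all 10560 genes, 4011 passed with these settings for spleen EM against Naive cells and 3166 for spleen EM against CM cells. For week 6 against week 2 in CD103+CD69+ cells, 739 of the 10560 genes passed. A count without its share over all genes does not set these genes apart.

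Fitting only the groups compared gave 1 for CD103+CD69+ against CD103-CD69+ cells in weeks 2 to 6, 0, 1 and 2 at week 1 for CD103+CD69+ against CD103-CD69+, CD103+CD69+ against CD103-CD69- and CD103-CD69+ against CD103-CD69- cells, 8 for CD103+CD69+ cells at week 2 against week 1, 2 for CD103-CD69+ cells at week 6 against week 2, and 0 and 1 for CD103-CD69- cells at week 2 against week 1 and week 6 against week 2. It gave 6 for spleen CM against Naive, 4 for EM against CM, 15 for CD103-CD69- against spleen EM cells, 5 for the change over time of CD103+CD69+ against CD103-CD69+ cells and 9 for checkpoint-blockade CD103-CD69+ against CD103-CD69- cells. This fit has fewer samples. With all 4 weeks, 2 passed between CD103+CD69+ and CD103-CD69+ cells (3.48% of all genes). The sample-code term gave 2 and 0 for CD103+CD69+ and CD103-CD69+ against CD103-CD69- cells, and leaving out week 6 gave 5 and 4. Without the variance trend, 0 passed in checkpoint-blockade CD103+CD69+ and CD103-CD69+ against CD103-CD69- cells, and quantile normalization gave 2 for CD103-CD69- cells at week 2 against week 1. With spleen CM in place of EM, CD103-CD69- cells had 12. The filter on low values and median rescaling moved no count by more than 1.5 times. Counts of this paragraph without a share over all genes do not set these genes apart. Other causes were not tested.

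Replicate numbers recur in the groups. Of 46 pairs with the same number in 1 week or tissue, 13 had correlated deviations above 0.1 (median 0.014, range -0.995 to 0.92), against a median of -0.009 over 98 other pairs. Deviations cancel out within a group, so the other pairs are partly fixed by the same-number pairs and give no independent baseline. The numbers did not meet the criterion for pairing, which is a correlation above 0.1 in every pair. Untreated CD103+CD69+ and CD103-CD69+ cells came nearest, with all 11 pairs positive (0.0097 to 0.861), 5 above 0.1, and 16 of 22 libraries most correlated with their own number, a hint from the data and not the design. The block gave 0 calls in that comparison in weeks 2 to 6. The block counts have no share over all genes beside them and do not set these genes apart. With the number as a replicate block, the counts were 3 for CD103+CD69+ against CD103-CD69+ cells at week 1, 0 for CD103+CD69+ and 0 for CD103-CD69- cells at week 6 against week 2, 2 and 0 for CD103-CD69+ and CD103-CD69- cells at week 2 against week 1, 5 for the change over time of CD103-CD69+ against CD103-CD69- cells, and 7 and 9 for checkpoint-blockade CD103+CD69+ and CD103-CD69+ against CD103-CD69- cells.

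Leaving out 1 library gave 6 to 11 for CD103+CD69+ and 2 to 9 for CD103-CD69+ against CD103-CD69- cells in weeks 2 to 6. At week 1 it gave 2 to 5 for CD103+CD69+ against CD103-CD69+ cells, 2 to 7 for CD103+CD69+ and 0 to 3 for CD103-CD69+ against CD103-CD69- cells. Week 6 against week 2 gave 0 to 2, 0 to 0 and 0 to 4 in CD103+CD69+, CD103-CD69+ and CD103-CD69- cells, and week 2 against week 1 gave 1 to 2 in CD103-CD69+ and 0 to 3 in CD103-CD69- cells. Spleen CM against Naive gave 6 to 9 and EM against CM 5 to 11. The change over time gave 3 to 5, 4 to 10 and 1 to 5 for CD103+CD69+ against CD103-CD69+, CD103+CD69+ against CD103-CD69- and CD103-CD69+ against CD103-CD69- cells. The checkpoint-blockade comparisons, in the same order, gave 0 to 1, 1 to 7 and 0 to 7. Where an omission left a group with 1 library, that library was assumed to vary like the others. The counts with 1 library left out have no share over all genes beside them and do not set these genes apart.

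Signs turned for uncalled genes between CD103+CD69+ and CD103-CD69+ cells, with Ldhb at 0.047 and Mif at -0.039 over all 4 weeks, and Pgk1 at -0.039 and Hif1a at 0.010 without week 6. Leaving out 1 library moved Bnip3 between -0.13 and 0.019, Mif between -0.013 and 0.17 and Pgk1 between -0.0038 and 0.080. With spleen Naive in place of EM cells, Vegfa turned to -0.14 in CD103+CD69+ and -0.67 in CD103-CD69+ cells, and Aldoc to -1.70 in CD103+CD69+ and -0.65 in CD103-CD69- cells. With spleen CM, Aldoc turned to -1.18 in CD103+CD69+ and -0.14 in CD103-CD69- cells, and Kdm3a to 0.050 and 0.16 in those subsets. Signs against spleen CM and Naive cells were read only for genes named by rule and called, so other members may have turned too. Pgam1, Pfkl and Gys1 were not read, nor was Aldoc in CD103-CD69+ cells. Their gaps between spleen EM and CM cells exceeded tumor differences from EM cells given above. The mean was therefore below that of spleen CM for Pgam1 in CD103+CD69+ cells and Pfkl in both CD69+ subsets. The same held for Gys1 in CD103-CD69+ and CD103-CD69- cells and for Aldoc in CD103-CD69+ cells. Whether these differences from CM cells pass the threshold was not read. Averaging the near-alike week 4 libraries gave 10, 5 and 22 for CD103+CD69+ against CD103-CD69-, CD103-CD69+ against CD103-CD69- and CD103-CD69- against spleen EM cells. Depth is unknown, so its limits could not be set.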
